A study of Mus musculus with 24 samples.

Results

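The genes described here encode the receptors of 3 inhibitory neuropeptide systems, namely the somatostatin receptors Sstr1, Sstr2, Sstr3 and Sstr4, the opioid receptors Oprk1 (kappa), Oprd1 (delta) and Oprm1 (mu), and the neuropeptide Y (NPY) receptors Npy1r, Npy2r and Npy5r. They were chosen by name and make up 10 of the 55471 genes in the count table. Their transcripts were measured by RNA-seq in the whole hippocampus of 12 female C57BL/6 mice aged 3 to 6 months, 3 in each of 4 groups. Control mice and CBP-ifKOs were housed either in standard cages (SC) or in an enriched environment (EE), which is a large box with more space and more objects. CBP-ifKOs carry floxed Crebbp alleles, the gene of the coactivator CBP, together with the CaMKIIα-creERT2 transgene. Controls are littermates that lack the transgene, and mice of both genotypes received 5 administrations of tamoxifen, the drug that switches the recombinase on. The Camk2a promoter drives the recombinase in excitatory forebrain neurons, so that interneurons and glia keep intact CBP, and the recombined neurons can still make a truncated protein without acetyltransferase activity. Each mouse gave 1 library, sequenced in 2 runs, and the deposited column of each mouse is named as merged.

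Somatostatin and NPY are released mainly by interneurons, and the opioid dynorphin by dentate granule cells. Their receptors couple to Gi/o proteins, which restrain adenylyl cyclase, open inwardly rectifying potassium channels and close presynaptic calcium channels, and thereby reduce the firing and the transmitter release of the cells that carry them. In the hippocampus, the receptors of NPY, somatostatin and dynorphin are known for restraining excitatory transmission, whereas the mu receptor acts mainly on interneurons and so relieves excitatory cells of inhibition. CBP takes its name from its binding to CREB, a factor that recognizes the cAMP response element (CRE) in DNA.

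The libraries of the controls held between 26874015 and 27971488 counts and those of the CBP-ifKOs between 28582210 and 37448388. Every count of the CBP-ifKO libraries was even, with 0 odd values, whereas between 54.0% and 55.1% of the nonzero counts of the control libraries were odd. Whether the CBP-ifKO columns hold both runs or 1 run entered again cannot be told from the table, so that their depths and counts are given as deposited. All comparisons of genotype were therefore repeated with the CBP-ifKO counts halved, which left the called receptors the same. Crebbp itself fell in CBP-ifKOs, by 0.58 on the log2 scale in SC and by 0.64 in EE (adjusted p = 0.000542 and 0.000407, edgeR), with the groups apart in both housings. Its paralog Ep300 did not pass the test in either housing (adjusted p = 0.394 and 0.775, edgeR). None of the marker genes listed for hippocampal cell types was at 0 throughout a group. The library of control EE mouse 1 stood apart for transcripts of the choroid plexus, which summed to 1242 CPM (counts-per-million of the library) against 34.8 to 62.1 in the other mice. Where nothing else is said, CPM are scaled to the library total with TMM factors, values are means ± SD of 3 mice, and log2 fold changes are given with their SE. In whole tissue, fewer cells of a type and less RNA per cell cannot be told apart.

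Per exonic length, the NPY receptors Npy2r and Npy1r had the highest levels and the kappa and mu opioid receptors the lowest. Npy2r, the presynaptic Y2 receptor that limits glutamate release, had 22.1 ± 2.91 CPM per kilobase over the 12 mice, and Npy1r, the Y1 receptor on cell bodies and dendrites, had 11.5 ± 1.46. Their ranges did not overlap, with a lowest Npy2r value of 17.8 and a highest Npy1r value of 13.7 CPM per kilobase. Sstr3, a receptor concentrated in neuronal cilia, followed at 8.71 ± 2.06, then Sstr4 at 7.08 ± 1.69 CPM per kilobase. Npy1r exceeded Sstr3 in each of the 12 mice and Sstr3 exceeded Sstr4 in 10 of them, but the ranges of these neighbours overlapped.

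Sstr1 (4.50 ± 1.26 CPM per kilobase) and Npy5r (4.36 ± 0.47) had no common order over the 4 groups, and Sstr1 was the higher in 5 of 12 mice. In SC controls Sstr1 was above Npy5r in all mice (5.55 to 6.92 against 4.53 to 4.79 CPM per kilobase). In EE controls it was below Npy5r in all mice (4.13 to 4.75 against 4.76 to 5.00), and in CBP-ifKOs the ranges overlapped in both housings. Sstr2 had 3.56 ± 0.77 CPM per kilobase and Oprd1, the enkephalin-preferring delta receptor, 2.64 ± 0.53. A wide step followed to Oprk1, the dynorphin receptor, at 0.21 ± 0.067 CPM per kilobase, and another to Oprm1 at 0.018 ± 0.011, and at both steps the ranges were apart. Oprm1 was counted between 0 and 8 times a library and was not tested in any comparison. In 2 libraries it was at 0, where a floor of 3 counts corresponds to 0.116 CPM in control EE mouse 2 and 0.0774 CPM in CBP-ifKO EE mouse 1, and this floor takes the even CBP-ifKO counts as deposited and covers counting error only. The other 9 receptors were tested, with as few as 36 counts for Oprk1 and as many as 2972 for Npy2r.

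**Figure D1:**
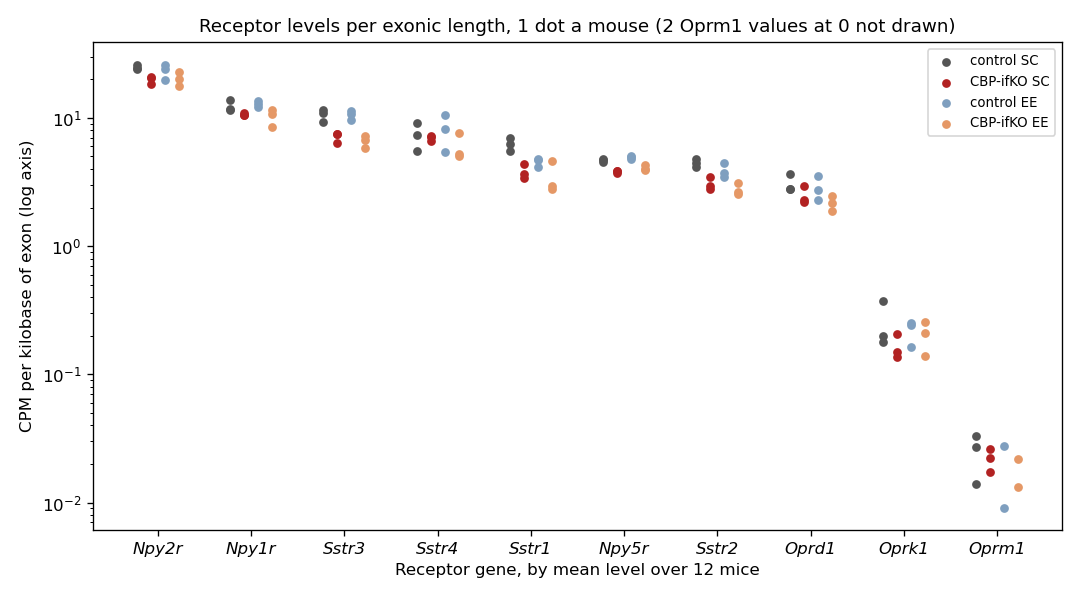
Levels of the 10 receptor genes in each mouse, as CPM per kilobase of exon on a log axis, with genes ordered by their mean over 12 mice and dots coloured by group. Npy2r stands above the rest at 22.1 on average, the next 8 receptors span the range down to Oprk1 at 0.21, and Oprm1 lies at 0.018 with its 2 values of 0 left out.

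In SC, all 9 tested receptors had a lower fitted level in CBP-ifKOs than in controls, and 4 of them fell past the threshold, namely Sstr1, Sstr2, Sstr3 and Npy2r (adjusted p under 0.05, edgeR's quasi-likelihood test with Benjamini-Hochberg adjustment over 17532 genes). Among all tested genes, 4.02% fell by that rule and 50.3% had a negative fold change. The groups did not overlap for 6 of the 9 receptors, the called ones and Npy1r and Npy5r, against 13.8% of all genes lower in the same way. The median log2 fold change was -0.32 over the 9 receptors and 0.00 over all genes. Somatostatin receptor genes were already in the study's own list of CBP-dependent genes, which was built in part on these SC mice, so their direction in SC is not independent evidence.

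In EE, the 9 receptors again all had lower fitted levels in CBP-ifKOs, with a median of -0.38 against 0.01 over all genes, of which 47.0% were negative. Only Sstr3 passed the threshold in these 6 other mice, and 3.53% of the 17625 genes tested fell by that rule. In EE, Npy1r was also called with DESeq2, Sstr2 with all 12 mice in 1 fit, and Sstr2, Sstr4 and Npy1r without a filter on low counts. The groups did not overlap for 4 receptors, Sstr2, Sstr3, Npy1r and Npy5r, against 13.9% of all genes. When the 12 mice were fitted together and the genotype effect averaged over housings, 6 receptors fell, which were Sstr1, Sstr2, Sstr3, Npy1r, Npy2r and Npy5r, beside 10.3% of 18251 genes. This last fit reuses the mice of the other comparisons and adds no new samples.

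**Figure D2:**
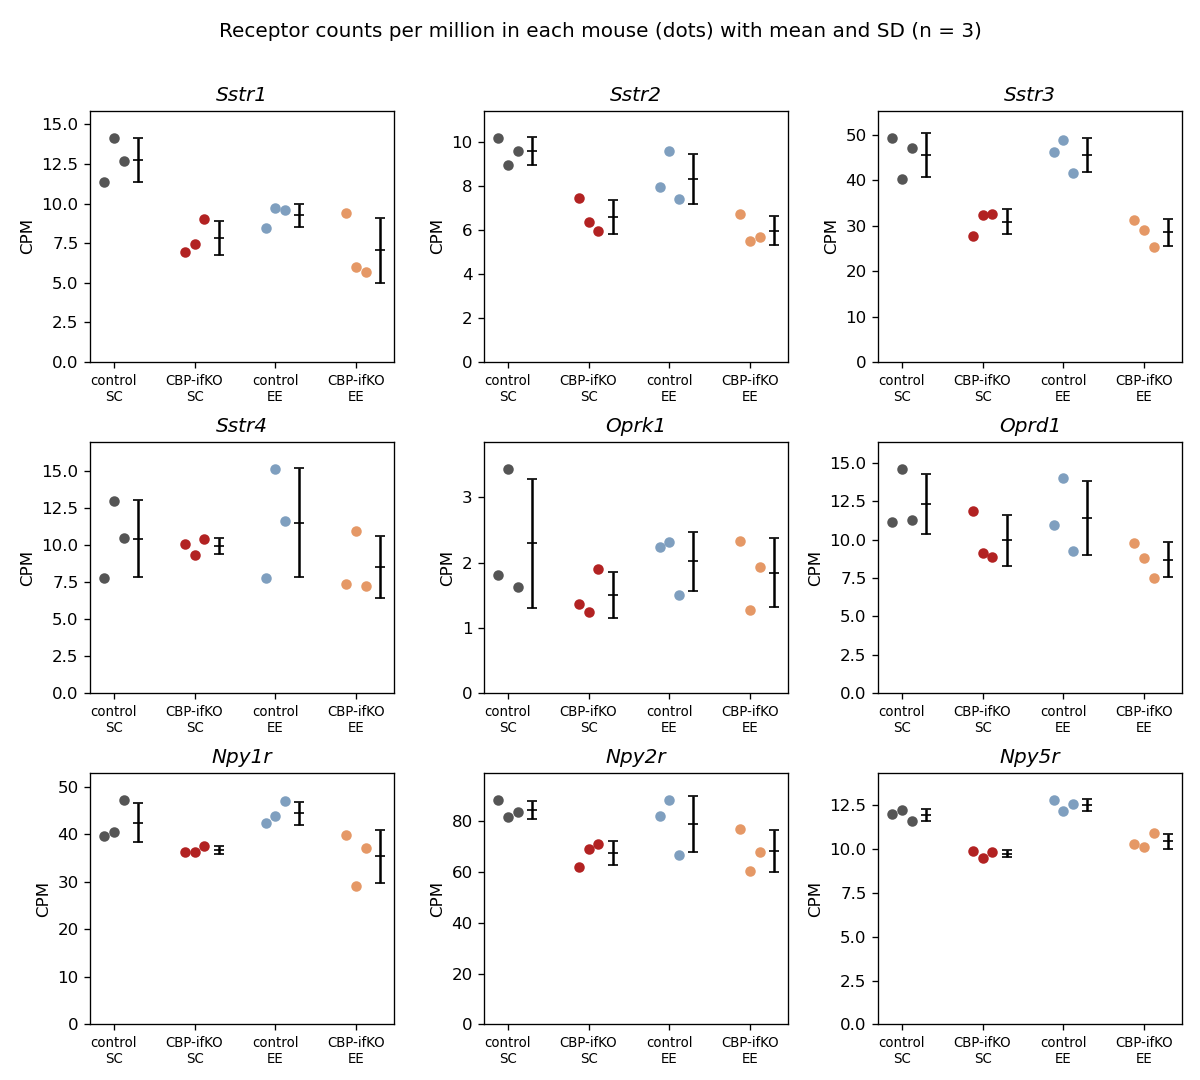
CPM of the 9 tested receptors in each mouse (dots) of the 4 groups, with the mean and SD of 3 mice beside them and axes from 0. For Sstr3 and Npy5r every CBP-ifKO lay below every control across both housings, whereas for Sstr4, Oprk1 and Oprd1 the genotypes overlapped within each housing.

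Among the somatostatin receptors, Sstr3 was the one called in both housings. Sstr3 lies on chromosome 15 (GRCm38, 78537008 to 78544685, minus strand). Its levels in SC controls were 49.4, 40.2 and 47.0 CPM, and those in SC-housed CBP-ifKOs were 27.7, 32.3 and 32.6 CPM. In EE, the controls had 46.3, 48.9 and 41.6 CPM and the CBP-ifKOs 31.3, 29.0 and 25.2 CPM. The highest CBP-ifKO value over both housings, 32.6 CPM, was below the lowest control value, 40.2 CPM, a separation shared by 5.35% of all genes. Sstr3 fell by 0.56 ± 0.089 on the log2 scale in SC and by 0.67 ± 0.090 in EE (adjusted p = 0.00432 and 0.00259, edgeR), that is to 0.678 and 0.630 of the control level. The call in EE held without control EE mouse 1 (log2 fold change -0.66, adjusted p = 0.00417, edgeR).

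Sstr1 (chromosome 12, 58211772 to 58214444, plus strand) encodes another receptor of somatostatin and its relative cortistatin. In SC, the 3 controls had 11.4, 14.2 and 12.7 CPM and the 3 CBP-ifKOs 6.93, 7.47 and 8.997 CPM. These groups were apart, and Sstr1 fell to 0.614 of the control level (log2 fold change -0.70 ± 0.13, adjusted p = 0.00828, edgeR), the largest change among the receptors that passed the test. In EE, the controls had 8.44, 9.72 and 9.61 CPM and the CBP-ifKOs 9.40, 6.03 and 5.69 CPM. CBP-ifKO EE mouse 1 lay within the control range, and the difference did not pass the test (log2 fold change -0.38, 95% interval -0.78 to 0.02, adjusted p = 0.275, edgeR). Without that mouse it passed, at -0.65 (adjusted p = 0.0336, edgeR).

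Sstr2 (chromosome 11, 113619342 to 113626028, plus strand) encodes the receptor targeted by the clinical somatostatin analog octreotide. Its controls had 10.2, 8.95 and 9.61 CPM in SC and 7.97, 9.61 and 7.42 CPM in EE. The CBP-ifKOs had 7.47, 6.36 and 5.98 CPM in SC and 6.71, 5.49 and 5.69 CPM in EE, below their controls in either housing. Sstr2 fell in SC (log2 fold change -0.54 ± 0.12, adjusted p = 0.0262, edgeR) and missed the threshold in EE (-0.47 ± 0.14, adjusted p = 0.0887, edgeR). Its call in SC was lost without control SC mouse 1 or 3 or CBP-ifKO SC mouse 2 or 3, with log2 fold changes between -0.53 and -0.47 and adjusted p between 0.0858 and 0.0971 (edgeR). Over both housings the log2 fold change was -0.51 ± 0.092 (adjusted p = 0.00126, edgeR).

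Sstr4 (chromosome 2, 148395344 to 148396767, plus strand) is a single-exon gene whose SD within a group was between 0.53 and 3.67 CPM. The SC controls had 7.79, 13.0 and 10.4 CPM and the SC-housed CBP-ifKOs 10.04, 9.34 and 10.4 CPM. The EE controls had 7.78, 15.1 and 11.6 CPM and the EE-housed CBP-ifKOs 7.38, 10.9 and 7.22 CPM. The groups overlapped in both housings, and the log2 fold changes of -0.07 in SC (95% interval -0.41 to 0.27) and -0.42 in EE (-0.91 to 0.07) did not pass the test. Without control SC mouse 2 the SC value for Sstr4 was 0.12.

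For 8 of the 10 receptors RefSeq (GRCm38.p6) promoter windows of 250 bases before and 50 bases after a start were at hand, 11 windows in all, and they were searched on both strands for the full CRE (TGACGTCA) and its half-site (TGACG), which is contained in the full element. The full element was present in 1 of the 11 windows and in 1.79% of 32851 windows of all genes, and the half-site in 2 of the 11 windows against 20.8%. The windows of Sstr2, Sstr3 and Npy2r are shown because these receptors fell in SC, in lower case with the searched letters in capitals. They lie at chr11:113619077-113619376 (plus strand), chr15:78544296-78544595 (minus strand) and chr3:82548036-82548335 (minus strand), in that order.
Sstr2: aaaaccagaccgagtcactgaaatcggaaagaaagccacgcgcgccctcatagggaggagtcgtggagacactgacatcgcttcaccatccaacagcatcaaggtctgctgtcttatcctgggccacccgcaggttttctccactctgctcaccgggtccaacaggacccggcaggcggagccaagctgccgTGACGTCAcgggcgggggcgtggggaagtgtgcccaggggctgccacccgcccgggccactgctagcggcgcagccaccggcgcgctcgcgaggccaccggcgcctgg
Sstr3: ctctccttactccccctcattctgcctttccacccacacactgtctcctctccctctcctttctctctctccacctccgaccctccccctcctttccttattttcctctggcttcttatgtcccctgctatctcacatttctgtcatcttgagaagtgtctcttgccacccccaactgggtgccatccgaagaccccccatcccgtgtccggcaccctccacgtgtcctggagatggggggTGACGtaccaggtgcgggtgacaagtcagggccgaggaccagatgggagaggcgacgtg
Npy2r: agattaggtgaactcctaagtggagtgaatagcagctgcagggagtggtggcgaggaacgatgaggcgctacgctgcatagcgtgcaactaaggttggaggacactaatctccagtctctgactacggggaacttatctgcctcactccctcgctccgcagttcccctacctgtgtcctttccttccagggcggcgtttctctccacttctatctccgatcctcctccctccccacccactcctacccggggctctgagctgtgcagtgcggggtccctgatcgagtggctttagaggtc
In Sstr2 the full element begins 58 bases before the start, and in Sstr3 the half-site begins 9 bases before it. The other Sstr3 window, at a start further inside the gene, and the windows of Npy2r, Npy1r, Npy5r, Sstr4, Oprd1 and Oprm1 held neither motif. These matches describe letters and were not tested as binding sites. Sstr1, which also fell in SC, and Oprk1 had no window and were not searched. The receptors that fell and had a window were found both with and without a match.

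The fitted changes of the NPY receptors in SC were smaller than those of Sstr1, Sstr2 and Sstr3, a difference between receptors that was not tested. Npy2r (chromosome 3, 82538383 to 82548084, minus strand) had 88.1, 81.3 and 83.5 CPM in SC controls and 62.0, 69.0 and 71.1 CPM in SC-housed CBP-ifKOs. Npy2r fell to 0.799 of the control level in SC (log2 fold change -0.32 ± 0.064, adjusted p = 0.0132, edgeR), with the groups apart. In EE, the controls had 81.9, 88.1 and 66.6 CPM and the CBP-ifKOs 76.7, 60.3 and 67.7 CPM. These overlapped, and the log2 fold change of -0.20 (95% interval -0.43 to 0.04) did not pass the test. The SC call for Npy2r was lost without CBP-ifKO SC mouse 1 (-0.27, adjusted p = 0.0664) or mouse 2 (-0.34, adjusted p = 0.0521), and when all 12 mice entered the fit (adjusted p = 0.0669, edgeR in each case).

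Npy1r and Npy5r are neighbours on chromosome 8, where Npy5r (66679965 to 66688128, minus strand) and Npy1r (66697192 to 66706792, plus strand) point away from each other across 9063 bases. Npy5r encodes the Y5 receptor, which occurs in cells that also carry Y1. Npy5r varied little within each group, with 11.9 ± 0.33 CPM in SC controls, 9.73 ± 0.22 in SC-housed CBP-ifKOs, 12.5 ± 0.32 in EE controls and 10.4 ± 0.44 in EE-housed CBP-ifKOs. The highest CBP-ifKO value, 10.9 CPM, was below the lowest control value, 11.6 CPM. Within 1 housing its log2 fold changes of -0.29 in SC and -0.25 in EE did not pass the test (adjusted p = 0.0907 and 0.165, edgeR), and over both housings Npy5r fell by 0.28 ± 0.058 (adjusted p = 0.00379, edgeR).

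Npy1r had 39.7, 40.5 and 47.2 CPM in SC controls and 36.2, 36.3 and 37.6 CPM in SC-housed CBP-ifKOs. In EE, the controls had 42.3, 43.9 and 47.0 CPM and the CBP-ifKOs 39.8, 29.2 and 37.04 CPM. CBP-ifKOs were below their own controls in both housings, although the highest CBP-ifKO value reached the lowest control value when the housings were pooled. Its log2 fold changes of -0.21 in SC and -0.32 in EE did not pass the test (adjusted p = 0.126 and 0.115, edgeR), and over both housings Npy1r fell by 0.27 ± 0.068 (adjusted p = 0.0122, edgeR). Of the 3452 different 50-base stretches in Npy1r transcripts, 98 occur in transcripts of other genes, so a small share of its reads could fit another gene. How the filter on mapping quality treated such reads was not tested.

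**Figure D3:**
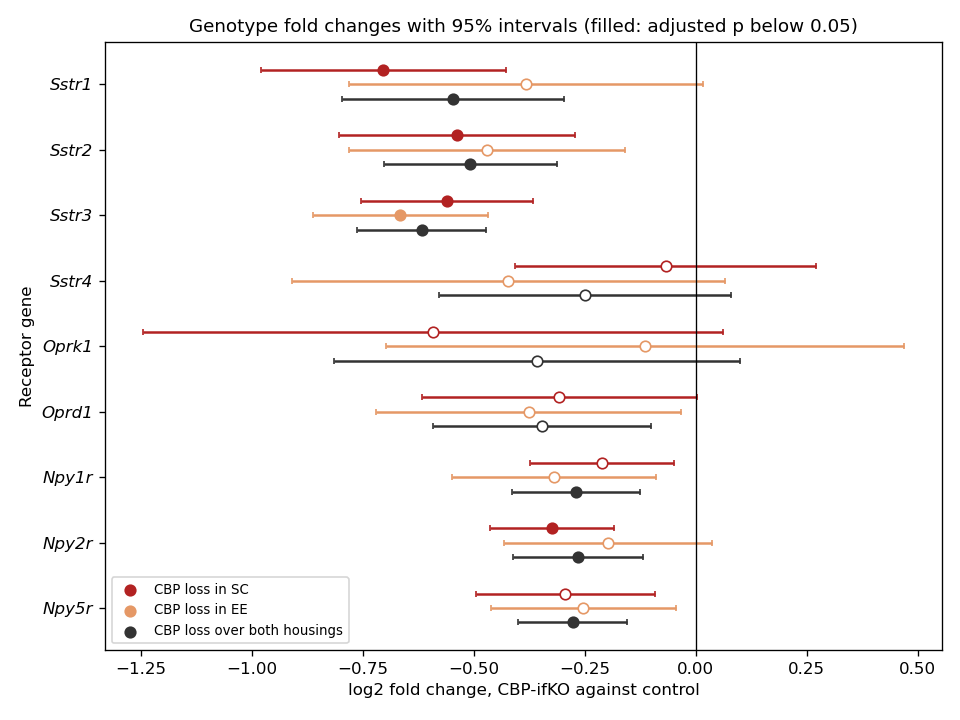
Log2 fold change of CBP-ifKOs against controls for the 9 tested receptors in SC, in EE and over both housings, with 95% intervals as bars and filled points for adjusted p under 0.05 (edgeR). All points lie below 0, and Sstr3 is the receptor with filled points in all 3 fits.

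None of the opioid receptors passed edgeR's test in any comparison, and 1 of them, Oprd1, passed in EE and over both housings at an unadjusted p under 0.05, as did 19.6% and 29.9% of all genes. Oprd1 (chromosome 4, 132110726 to 132144486, minus strand) had 11.1, 14.6 and 11.3 CPM in SC controls and 11.9, 9.13 and 8.89 CPM in SC-housed CBP-ifKOs. In EE, its controls had 10.9, 14.04 and 9.25 CPM and its CBP-ifKOs 9.81, 8.80 and 7.51 CPM. The groups overlapped by 1 CBP-ifKO in each housing, and the log2 fold changes were -0.31 in SC (95% interval -0.62 to 0.00) and -0.38 in EE (-0.72 to -0.03), with adjusted p of 0.247 and 0.210 (edgeR). Over both housings Oprd1 stood at the threshold, with -0.35 ± 0.12 and an adjusted p of 0.0507 (edgeR). It passed without CBP-ifKO SC mouse 1, control EE mouse 3 or CBP-ifKO EE mouse 1, with log2 fold changes of -0.42, -0.41 and -0.39 (adjusted p = 0.0268, 0.0268 and 0.0407, edgeR). Oprd1 also passed with DESeq2 (-0.34, adjusted p = 0.0246), without a filter on low counts (-0.36, adjusted p = 0.000859, edgeR) and with the replicate number as a block.

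Oprk1 (chromosome 1, 5588466 to 5606131, plus strand) was counted 36 to 91 times a library. Its controls had 1.82, 3.44 and 1.63 CPM in SC and 2.24, 2.31 and 1.498 CPM in EE, and its CBP-ifKOs 1.37, 1.25 and 1.91 CPM in SC and 2.32, 1.28 and 1.94 CPM in EE. The groups overlapped, and the interval was wide, from -1.25 to 0.06 around a log2 fold change of -0.59 in SC and from -0.70 to 0.47 around -0.12 in EE. Without CBP-ifKO EE mouse 2 the EE value for Oprk1 was 0.09. Oprm1 (chromosome 10, 6758506 to 7038198, plus strand), the receptor for morphine, which in the hippocampus sits mainly on interneurons, averaged 0.15 CPM in the 6 controls and 0.14 CPM in the 6 CBP-ifKOs, near the floor of 3 counts. Its exons share 96 bases with Ipcef1 on the opposite strand, and the strand setting of the counting is not given in the sources used here.

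Housing moved none of the receptors past the threshold, by edgeR or by DESeq2, and 1 receptor, Sstr1 in control mice, had an unadjusted p under 0.05, as did 4.21% of all genes there and 8.59% in CBP-ifKOs. No gene was called in the comparison of EE with SC in control mice (0% of 18251 by edgeR, 768 at an unadjusted p under 0.05). For the same mice 15 were called by DESeq2 and 145 by edgeR without a filter on low counts. In CBP-ifKOs 2 genes, 0.011%, were called (50 by DESeq2 and 247 without that filter). The closest receptor was Sstr1, where the EE controls, at 8.44 to 9.72 CPM, were all below the SC controls, at 11.4 to 14.2 CPM (log2 fold change -0.46 ± 0.17, unadjusted p = 0.0139, adjusted p = 0.999, edgeR), as were 4.91% of all genes. In CBP-ifKOs the corresponding value for Sstr1 was -0.15 (95% interval -0.50 to 0.21). The interaction tests whether the genotype difference in EE departs from that in SC. It was 0.31 ± 0.24 for Sstr1 (unadjusted p = 0.204, edgeR) and did not pass for any receptor. Among all genes 0% passed it (574, or 3.15%, at an unadjusted p under 0.05, and 0 by DESeq2). Without a filter on low counts 110 genes passed it (edgeR), none of them a receptor described here. A fall called in SC and not in EE is therefore not shown to differ between the housings.

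For the remaining receptors the changes with EE lay between -0.20 and 0.14 in controls and between -0.22 and 0.28 in CBP-ifKOs. Npy5r in CBP-ifKOs was higher in EE (10.1 to 10.9 CPM) than in SC (9.48 to 9.86 CPM) in all mice, as were 7.69% of genes, without passing the test (log2 fold change 0.10, adjusted p = 0.763, edgeR).

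**Figure D4:**
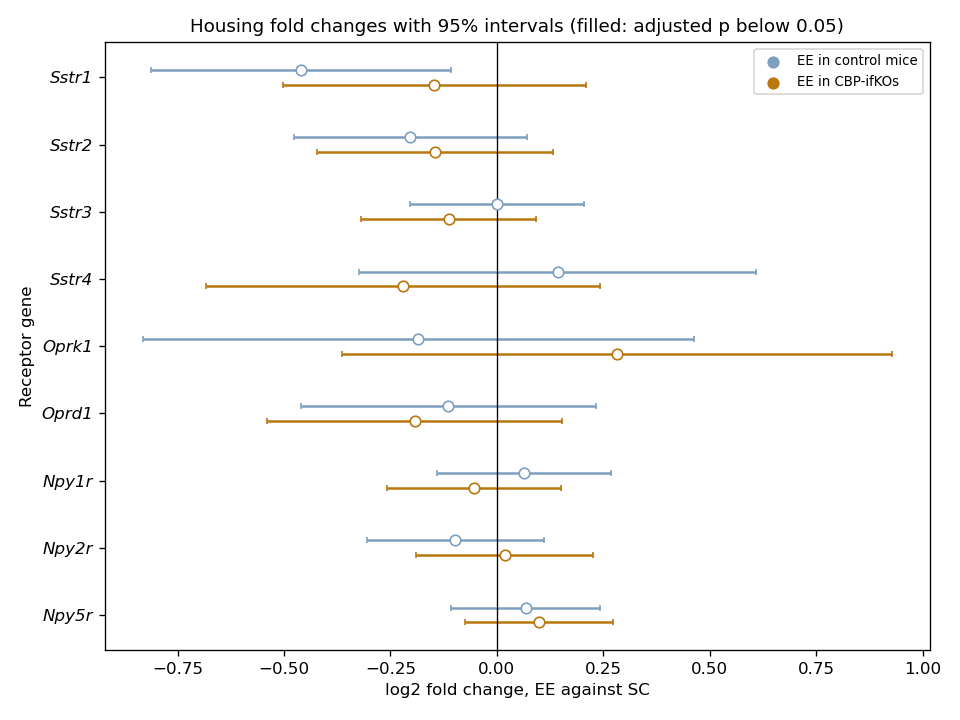
Log2 fold change of EE against SC in controls and in CBP-ifKOs for the 9 tested receptors, with 95% intervals as bars, none filled because none had an adjusted p under 0.05 (edgeR). Sstr1 in controls, at -0.46, is the 1 value whose interval does not reach 0.

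Of the 9 genes for the peptides themselves, 7 were tested, and 3 fell in SC and 2 in EE, against 4.02% and 3.53% of all genes. The study already named enkephalin and dynorphin among its CBP-dependent genes, a list built in part on these SC mice. The falls of Penk and Pdyn in SC are therefore not independent evidence. Pdyn, the dynorphin precursor, fell from 16.0 ± 2.29 to 5.97 ± 0.62 CPM in SC and from 14.9 ± 2.36 to 5.38 ± 0.32 CPM in EE (log2 fold changes -1.42 and -1.46, adjusted p = 0.000127 and 0.000272, edgeR). Penk, the enkephalin precursor, fell from 22.5 ± 1.63 to 10.99 ± 0.67 CPM in SC and from 27.7 ± 1.89 to 16.7 ± 2.20 CPM in EE (-1.03 and -0.72, adjusted p = 9.93e-05 and 0.00370, edgeR). Penk shares 233 exonic bases with A830012C17Rik on the opposite strand. Sst, the somatostatin precursor and a marker of interneurons, had 176, 144 and 181 CPM in SC controls and 122, 130 and 141 CPM in SC-housed CBP-ifKOs. Sst fell in SC (-0.35 ± 0.084, adjusted p = 0.0324, edgeR) and missed the threshold in EE (-0.30 ± 0.091, adjusted p = 0.0873, edgeR). Npy, with -0.21 in SC and -0.16 in EE, did not pass, nor did Cort (-0.48 and -0.13), Pnoc (-0.18 and -0.22) and Pomc (0.04 and -0.07). Pyy and Ppy had 0 counts in all 12 libraries, which allows up to 0.0774 to 0.116 CPM.

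The remaining family members were not called. Oprl1, the nociceptin receptor, had log2 fold changes of -0.03 in SC and 0.03 in EE, with SEs of 0.059 and 0.060. Sstr5 was counted 2 to 18 times a library and was tested in EE only among the fits within a housing (-0.63 ± 0.65), and Npy4r, with 0 to 2 counts, was not tested.

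Downstream of the receptors, 26 genes for Gi/o subunits and their effectors were tested. In SC, 2 fell and 1 rose, and in EE 4 fell and 1 rose, with medians of -0.07 and -0.11. Among all tested genes, 4.02% fell and 1.51% rose in SC, and 3.53% fell and 1.03% rose in EE. Gng7, a G protein gamma subunit, fell by 0.44 in SC and by 0.60 in EE, and Gng4, another gamma subunit, rose by 0.46 and 0.49. Adcy5, an adenylyl cyclase, fell in SC (-0.22), while in EE Adcy1, a calmodulin-stimulated adenylyl cyclase (-0.45), and Gnaz, a Gi family alpha subunit (-0.24), fell. Among 22 genes for receptor desensitisation, which turn the signal off, 3 fell in both housings and 1 rose in SC. Rgs14 fell by 1.10 in SC and by 1.24 in EE, Rgs4 by 0.58 and 0.50, and Rgs8 by 0.28 and 0.39, and Rgs11 rose by 0.39 in SC. These RGS proteins speed the return of G proteins to their inactive state. Rgs8 and Rgs11 share 70 and 138 exonic bases with a gene on the opposite strand. Over both housings 8 of the 26 Gi/o genes fell and 1 rose, and 7 of the 22 desensitisation genes fell and 4 rose, against 10.3% and 6.64% of all genes.

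Receptors of other neuropeptides gave a similar median in SC, -0.33 over 23 tested genes, of which 2 fell and 1 rose against 4.02% and 1.51% of all genes, and 9 had an unadjusted p under 0.05 against 20.5%. They had a median of -0.22 in EE, where none of 23 was called (edgeR) and 7 had an unadjusted p under 0.05, against 19.6% of all genes. Oxtr, the oxytocin receptor, fell in SC (-0.44 ± 0.097, adjusted p = 0.0235, edgeR), as did Npr1 (-0.70 ± 0.17, adjusted p = 0.0362, edgeR), and Npr2 rose (0.28 ± 0.070, adjusted p = 0.0386, edgeR). Npr1 and Npr2 are natriuretic peptide receptors with guanylyl cyclase activity, and both share exonic bases with a gene on the opposite strand. Over both housings 8 of 24 fell and 1 rose, against 10.3% and 6.64% of all genes, and Vipr1, a receptor of vasoactive intestinal peptide, was among those that fell (-0.29 ± 0.060, adjusted p = 0.00394, edgeR).

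**Figure D5:**
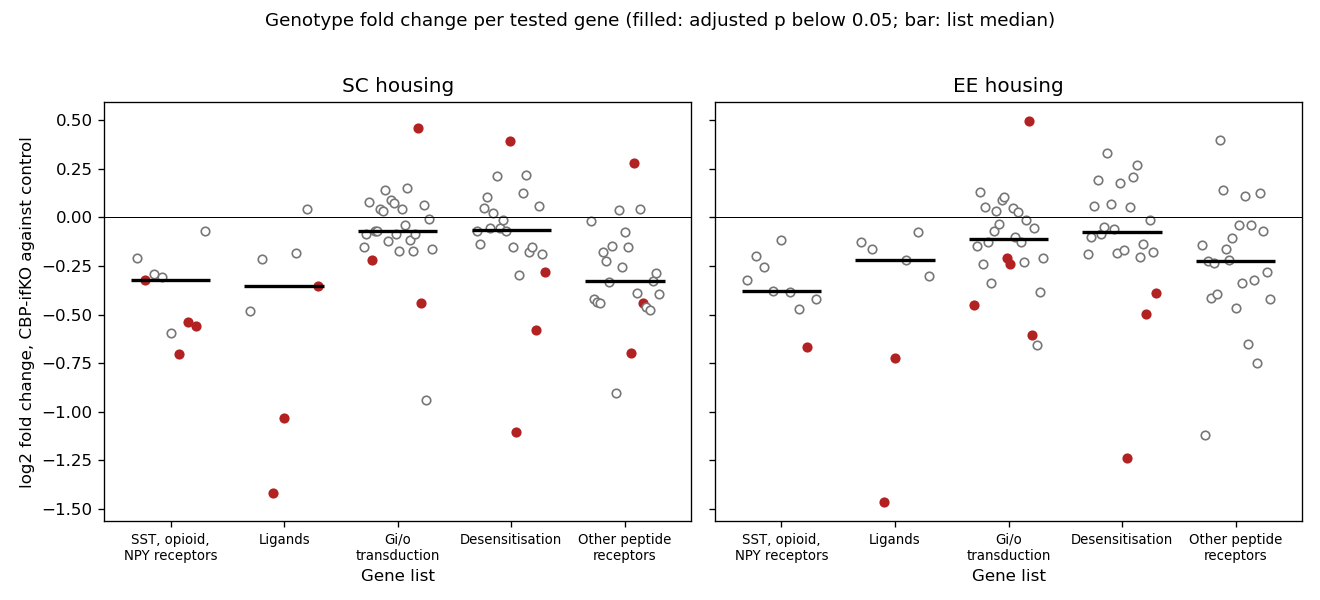
Log2 fold change of CBP-ifKOs against controls for every tested gene of 5 lists in SC (left) and EE (right), filled where the adjusted p was under 0.05 (edgeR), with the list median as a bar. The medians of the receptors described here are -0.32 and -0.38, and Pdyn, Penk and Rgs14 reach lower values than any of these receptors.

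Markers of several cell types were lower in CBP-ifKOs together with the receptors. Over all genes, 4.02% fell in SC and 3.53% in EE, and the markers are counted by the same rule. Of 5 CA1 markers, 4 fell in SC and 4 in EE (Wfs1, Fibcd1, Mpped1 and Man1a), and their summed level was 698 to 790 CPM in SC controls against 541 to 557 in SC-housed CBP-ifKOs, and 739 to 807 against 522 to 548 in EE. For dentate granule cells, 3 of 6 fell in SC and 5 of 6 in EE, and the summed levels were 370 to 392 against 283 to 319 CPM in SC and 352 to 414 against 232 to 275 in EE. Of 9 interneuron markers, 1 fell in SC, which was Sst, and none in EE, where Sst (-0.30) and Vip (0.25), in opposite directions, had an unadjusted p under 0.05, with summed levels of 1271 to 1284 against 1155 to 1216 CPM in SC and 1225 to 1321 against 1174 to 1225 CPM in EE. Of 4 CA2 markers 2 fell in either housing, and of 5 excitatory neuron markers 1, Nrgn, did.

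None of the markers of CA3, astrocytes, oligodendrocytes, microglia and endothelium fell within 1 housing (edgeR), and at an unadjusted p under 0.05 the CA3 markers numbered 3 of 5 in SC and 2 of 5 in EE, against 20.5% and 19.6% of all genes. By the same count there was 1 of 5 astrocyte markers in either housing, 1 of 5 microglia markers in SC and 2 of 5 in EE, 2 of 4 endothelial markers in SC and 0 in EE, and 0 of 5 oligodendrocyte markers. Over both housings, however, where 6 receptors were called, 10.3% of all genes fell and 6.64% rose. In this fit Grik4 and Iyd of the CA3 markers fell (adjusted p = 0.0211 and 0.0190, edgeR). Slc1a3 of the astrocytes (adjusted p = 0.0173, edgeR) and Cx3cr1 and Csf1r of the microglia (adjusted p = 0.0170 and 0.0356, edgeR) fell as well. Of the interneuron markers Sst fell (adjusted p = 0.00322, edgeR) and Vip rose (adjusted p = 0.0361, edgeR). The summed CA3 markers were 253 to 270 CPM in SC controls against 227 to 253 in SC-housed CBP-ifKOs, and 262 to 286 against 245 to 260 CPM in EE. The summed astrocyte markers were 1477 to 1653 CPM in SC controls against 1425 to 1446 in SC-housed CBP-ifKOs, and 1445 to 1497 against 1292 to 1365 CPM in EE. Those of microglia were 257 to 261 against 229 to 251 CPM in SC and 239 to 265 against 224 to 229 CPM in EE. These 3 sums were apart between the genotypes in either housing, for CA3 in SC by less than 1 CPM. The endothelial sums were apart in SC (141 to 148 against 121 to 133 CPM) and overlapped in EE, and the oligodendrocyte sums overlapped in both. Of tissues around the hippocampus, the choroid plexus marker Ttr fell in SC by 1.70 (adjusted p = 2.2e-05, edgeR), where the summed markers were 46.7 to 52.9 against 35.1 to 38.5 CPM, although Kl of the same list stood at 0.22 with every CBP-ifKO above the controls. The thalamus marker Prkcd fell in EE by 0.50 (adjusted p = 0.0197, edgeR), where the sums were 38.6 to 45.9 against 35.2 to 38.0 CPM, and the other thalamus markers had log2 fold changes of -0.01 (Tcf7l2), 0.16 (Synpo2) and 0.24 (Lef1). The part of these cell populations in the receptor values was not tested.

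The genes whose levels followed the called receptors most closely over the 12 mice were named by their correlation of log2 CPM among 18250 other genes, a description in which the points share the genotype groups. For Sstr3 they were Fibcd1, 1 of the CA1 markers (r = 0.98), Rtn4rl1 (0.98) and Cdk17 (0.96). Sstr1 was followed by Ecel1 (r = 0.95), Cfap300 (0.94) and Gm48710 (0.93), and Sstr2 by Rab9b (0.96), Ywhab (0.94) and Tle3 (0.94). Npy2r was followed by Ppp1cb (0.93), Ogfrl1 (0.91) and Gpm6a (0.91). After the group means were removed, the 12 values lay between 0.71 (Ywhab) and 0.91 (Fibcd1). These genes were picked by their correlation in the same mice, so the values are not separate evidence.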

How the data were processed

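Total RNA of 12 hippocampi was sequenced as 50-base single-end reads, in 2 runs per mouse. The authors trimmed the reads with Trim Galore 0.6.4, aligned them with STAR 2.6.1 to mm10 (GRCm38), kept those of sufficient mapping quality and counted the rest over the exons of the Ensembl genes with Rsubread. The deposited values are these raw counts, in columns named as merged over the runs of a mouse, beside the exonic length of each gene. Groups were taken from the sample titles.

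Counts were compared with edgeR 4.0.16 in R 4.3.3 (filterByExpr, TMM, quasi-likelihood F test, Benjamini-Hochberg adjustment at 0.05), within SC, within EE, and over 12 mice with 1 coefficient per group. The procedure was tested on simulated data with known changes. Depth enters through the model, and the intervals cover the spread between mice. Levels were compared between genes per kilobase of exon only. Positions and shared exons came from the GENCODE annotation of GRCm38, promoters from RefSeq. The named genes were the receptors, Crebbp and Ep300, their ligands and close paralogs, up to 4 called genes with the smallest p from each other list, and the 3 most correlated genes of each receptor called in SC. The receptors, lists and tests were chosen with earlier results of these data known. Alternatives were DESeq2 1.42.0, its size factors, no filter on low counts, a filter of 1 CPM in 3 mice, halved CBP-ifKO counts, the replicate number as a block, all 12 mice in 1 fit, and each mouse left out. In 0 of the 6 pairs of groups did all same-numbered mice correlate above 0.1 in their deviations from the group means. In 2 pairs, however, all of these correlations were positive. They were 0.19, 0.30 and 0.034 between SC and EE controls, and 0.11, 0.12 and 0.034 between EE controls and EE-housed CBP-ifKOs. Whether the replicate numbers mark a shared batch was not tested.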

Additional observations from a re-analysis of the deposited data

How the results depend on the processing

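Across the alternatives, Sstr1 in SC and Sstr3 in SC and in EE kept their direction and their side of the threshold in all 13 settings run, and Sstr1, Sstr2, Sstr3, Npy1r, Npy2r and Npy5r kept theirs in all 18 settings run over both housings. Without a filter on low counts 8 receptors were called over both housings, with Oprd1 and Sstr4 (log2 fold change -0.26, adjusted p = 0.0376, edgeR) added. The number of receptors called in EE was 1 as reported and 2 with DESeq2 (Sstr3 and Npy1r), 4 without a filter on low counts (Sstr2, Sstr3, Sstr4 and Npy1r) and 2 with all 12 mice in 1 fit (Sstr2 and Sstr3). In SC all 12 mice in 1 fit gave 4 receptors, with Npy5r (adjusted p = 0.0498, edgeR) in place of Npy2r. When each mouse was left out in turn, between 2 and 4 receptors were called in SC, between 1 and 2 in EE and between 6 and 7 over both housings, and 0 for housing and interaction.

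Over all genes, 1512 were called in SC without the filter against 968. In EE 1262 were called with DESeq2, 1677 without the filter and 1293 with all 12 mice, against 805. For EE in CBP-ifKOs 50 were called with DESeq2, 247 without the filter, 17 with the replicate block and 0 with halved counts, against 2. For EE in control mice 15 were called with DESeq2 and 145 without the filter, and for the interaction 110 without the filter, against 0. Leaving out 1 mouse gave 399 to 1908 in SC, 285 to 1016 in EE, 2459 to 3294 over both housings, 0 to 10 for EE in CBP-ifKOs and 0 to 5 for EE in control mice.

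Signs turned for the following values, none of which was called. With each mouse left out, the log2 fold change ranged for Sstr4 in SC from -0.23 to 0.12 and for Oprk1 in EE from -0.32 to 0.089. For EE in control mice the ranges were -0.081 to 0.063 for Sstr3, -0.10 to 0.36 for Sstr4, -0.38 to 0.22 for Oprk1, -0.29 to 0.025 for Oprd1 and -0.18 to 0.011 for Npy2r. For EE in CBP-ifKOs they were -0.15 to 0.067 for Npy1r and -0.074 to 0.10 for Npy2r. For the interaction they were -0.035 to 0.17 for Sstr2, -0.22 to 0.097 for Oprd1, -0.21 to 0.0029 for Npy1r and -0.0025 to 0.055 for Npy5r.

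The replicate numbers shared by the groups were tried as a block. With it, Sstr3 changed by -0.00040 in control mice under EE, where the fit without it gave 0.00076, Oprd1 passed over both housings (-0.34, adjusted p = 0.0232, edgeR), and 1041 genes were called in SC, 1089 in EE and 3374 over both housings. The cause of these changes was not tested. The block changed no other call among the receptors.

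With 3 mice a group, fold changes below the called ones can be missed, and Oprm1 was counted too rarely to be tested. Nothing in the labels says whether the mice of a group shared a litter or a cage.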
